A study of Mus musculus with 10 samples.

Results

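The cell cycle and proliferation genes examined here are a list of 42 genes of S phase and mitosis, and their RNA was compared between livers with and without deletion of Vps33b. A member was measured where at least 1 array probe set was annotated to its symbol alone, and where there were several, the brightest on average was taken. This gave values for 40 of the 42 genes, out of 22180 genes measured in all. Ccnb1 and Ccne2 had no probe set of their own and are named here without values.

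The arrays hold whole liver RNA of 10 mice, 1 Affymetrix Mouse Gene 2.0 array per mouse. The 4 controls were Cre-negative Vps33b fl/fl littermates, 2 males (mice 1 and 2) and 2 females (mice 3 and 4). The 6 knockout mice were Vps33b fl/fl-AlfpCre, 3 males (mice 1, 2 and 3) and 3 females (mice 4, 5 and 6), in which Cre is active in hepatocytes and cholangiocytes, so other liver cells keep the gene. Every mouse of both groups ate chow with 0.5% cholic acid, a primary bile acid, from 10 weeks of age for 2 weeks according to the labels. The study's general methods give another age and length. Its account of the arrays gives no length, and an age range at death that the labels' values fall within. No liver on plain chow therefore enters the comparison. In bulk liver, fewer cells of a type and less RNA per cell cannot be told apart.

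Most hepatocytes of the adult liver are quiescent, and they re-enter the cell cycle after injury or loss of tissue. D-type cyclins with their kinases release E2F factors from the RB family, which switches on genes for DNA replication and nucleotide supply. Genes of mitosis follow later, many of them through CHR and CCAAT elements that are bound by the DREAM and MYB-MuvB complexes, NF-Y and FOXM1. RNA of these genes is therefore low in resting tissue and rises in cycling cells of any type.

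To show the promoter elements of S phase and mitotic genes, RefSeq windows (GRCm38.p6) from 250 bases before to 50 bases after the annotated start are printed for Tk1 and Birc5, the 2 genes that changed, for Plk1 and Cdc20, mitotic genes with wide spread between mice, and for Mcm5, a replication gene. Capitals mark matches on either strand to the CHR element TTTGAA and its variant TTCGAA, to the CCAAT box, and the E2F letters TTCCCGC with their variants TTGGCGC along with TTCGCGC and besides TTGCCGC.
Tk1, chr11:117825965-117826264, minus strand: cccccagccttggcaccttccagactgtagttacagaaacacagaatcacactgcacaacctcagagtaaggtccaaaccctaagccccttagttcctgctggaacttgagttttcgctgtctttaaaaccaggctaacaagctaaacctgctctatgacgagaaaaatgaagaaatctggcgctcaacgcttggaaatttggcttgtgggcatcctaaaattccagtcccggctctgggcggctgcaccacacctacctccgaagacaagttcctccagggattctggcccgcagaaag
Birc5, chr11:117848987-117849286, plus strand: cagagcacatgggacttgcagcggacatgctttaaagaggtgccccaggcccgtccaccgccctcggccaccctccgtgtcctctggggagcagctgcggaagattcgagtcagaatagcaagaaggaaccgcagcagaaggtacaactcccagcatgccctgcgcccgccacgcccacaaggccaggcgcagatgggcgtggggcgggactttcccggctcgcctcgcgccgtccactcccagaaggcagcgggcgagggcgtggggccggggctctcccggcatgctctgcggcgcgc
Plk1, chr7:122159185-122159484, plus strand: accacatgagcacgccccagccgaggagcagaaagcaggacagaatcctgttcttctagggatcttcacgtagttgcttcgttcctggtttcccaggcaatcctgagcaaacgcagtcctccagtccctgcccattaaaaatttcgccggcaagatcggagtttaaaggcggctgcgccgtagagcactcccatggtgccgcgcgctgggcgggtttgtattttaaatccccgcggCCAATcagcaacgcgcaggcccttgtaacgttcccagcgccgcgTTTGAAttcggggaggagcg
Cdc20, chr4:118437294-118437593, minus strand: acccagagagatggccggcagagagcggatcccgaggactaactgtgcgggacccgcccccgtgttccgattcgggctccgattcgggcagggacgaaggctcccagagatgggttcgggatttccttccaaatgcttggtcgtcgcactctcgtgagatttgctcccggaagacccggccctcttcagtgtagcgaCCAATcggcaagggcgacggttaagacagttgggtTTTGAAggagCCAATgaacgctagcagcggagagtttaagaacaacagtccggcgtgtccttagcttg
Mcm5, chr8:75109259-75109558, plus strand: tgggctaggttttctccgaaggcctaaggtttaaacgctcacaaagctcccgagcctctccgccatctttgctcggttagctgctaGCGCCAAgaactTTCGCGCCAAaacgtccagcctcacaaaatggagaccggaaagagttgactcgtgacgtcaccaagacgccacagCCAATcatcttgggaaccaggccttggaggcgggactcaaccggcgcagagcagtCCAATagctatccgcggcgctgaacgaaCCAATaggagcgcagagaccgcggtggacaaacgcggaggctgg

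Of the 40 measured members, 34 had a window in the table. CHR letters were found in 20 of the 34 (58.8%), against 21.7% of the 27025 genes of the table, CCAAT in 27 (79.4%), against 41.1%, and E2F letters in 10 (29.4%), against 10.9%. Both CHR and CCAAT letters were present in the windows of 19 of 34 members (55.9%) and in 9.65% of all genes. Among the mitotic kinases and checkpoint genes 7 of 9 held CHR letters and 0 of 9 held E2F letters, whereas among the replication genes 2 of 6 held CHR and 4 of 6 held E2F letters. The Tk1 and Birc5 windows held none of these letters. A match is only a run of letters in this window, and no binding was measured here.

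Of the 40 genes, 2 were lower in knockout livers, Tk1 and Birc5, and 0 were higher, while 38 did not pass the test (limma with terms for genotype and sex, Benjamini-Hochberg adjustment over all 22180 genes, threshold 0.05). Over all genes tested, 252 were lower (1.14%) and 690 were higher (3.11%), 4.25% in either direction. The same 2 members were the ones whose 6 knockout values all lay below the 4 control values, which was the case for 1.93% of all genes. At an unadjusted p under 0.05 there were 4 lower members (Tk1, Birc5, Aurka and E2f8) and 0 higher, against 7.67% and 9.65% of all genes.

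The log2 fold change, knockout minus control, was below 0 in 30 of 40 members, with a median of -0.27, and over all genes 51.93% were below 0, with a median of -0.007. That median leaned on single mice. It was -0.49 without control 4, with 36 of 40 below 0, -0.13 without control 3 and -0.11 without knockout 3, each with 27 of 40 below 0. The members also varied more between mice than other genes did. Their median residual SD was 0.41 on the log2 scale, against 0.16 over all genes, and 32 of 40 members lay above the 90th percentile of all genes (0.28). The 95% intervals of the fold changes had a median width of 0.93, against 0.44 over all genes.

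**Figure D1:**
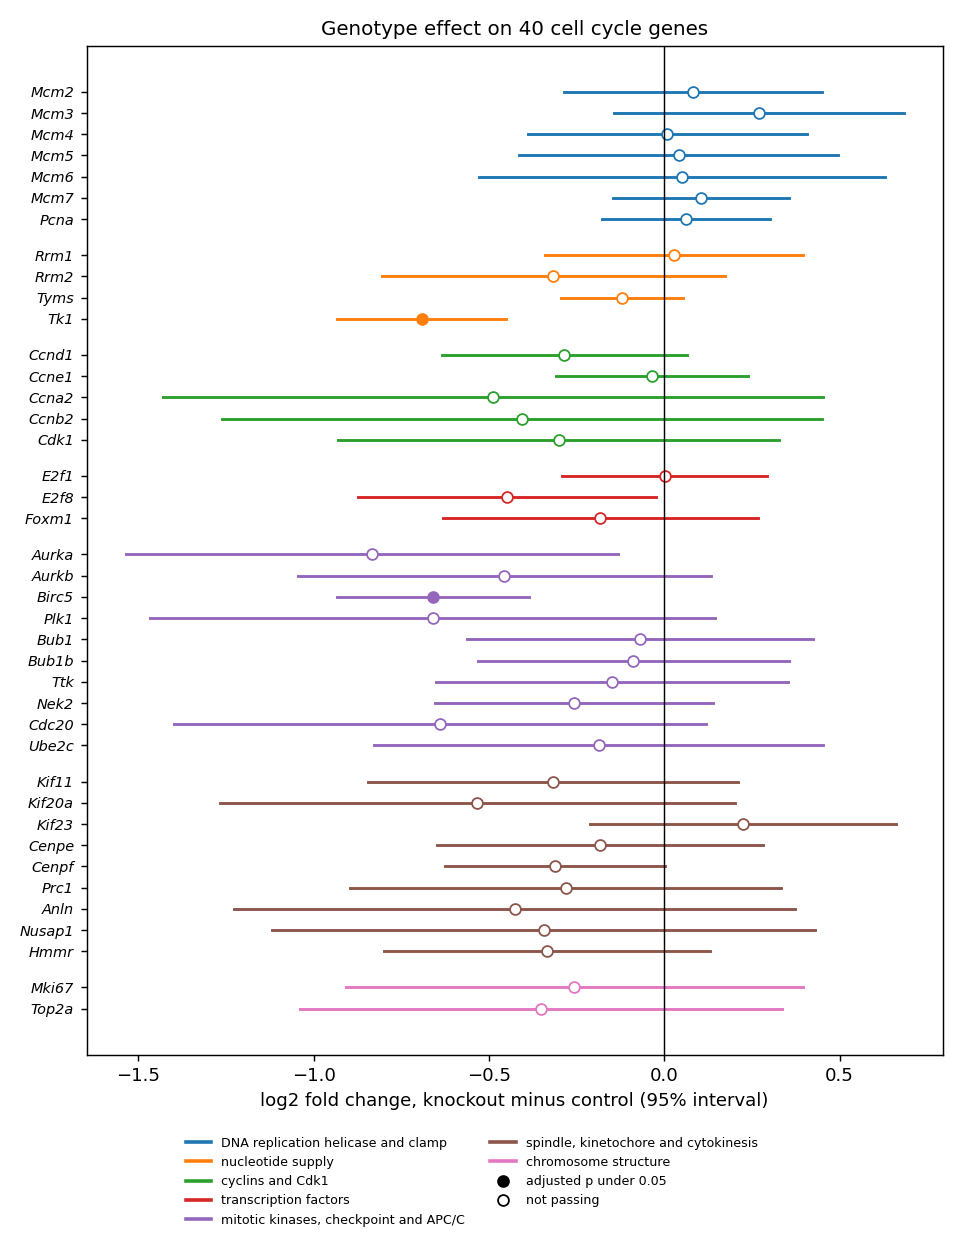
Log2 fold change of each of the 40 measured cell cycle genes, knockout minus control, grouped by role, with 95% intervals as lines (4 control and 6 knockout mice). Filled circles mark Tk1 and Birc5, which passed the test, and all 7 replication genes at the top sit at or above 0 (6 of 7 after median centring or repeated quantile normalisation) while the mitotic genes lie mostly to the left of it, with long intervals.

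Tk1, the thymidine kinase that salvages thymidine for DNA synthesis, had log2 values of 8.09, 8.61, 8.44 and 8.15 in the controls, in the order of mice 1 to 4, and of 7.88, 7.66, 7.67, 7.61, 7.49 and 7.47 in the knockout livers, in the order of mice 1 to 6. The highest knockout value, in male 1, was below the lowest control. The log2 fold change was -0.69 (SE 0.11, 95% interval -0.93 to -0.45, adjusted p = 0.00778), that is 1.62-fold lower, and it was -0.62 in males and -0.77 in females. Leaving out each mouse in turn kept the call in 10 of 10 fits (adjusted p 0.00176 to 0.0407).

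Birc5, which encodes survivin, a subunit of the chromosomal passenger complex of Aurkb and an inhibitor of apoptosis, read 5.03, 4.69, 4.80 and 4.34 in the controls and 4.00, 4.21, 4.02, 3.93, 4.29 and 3.89 in the knockout mice. All knockout values were lower, with control 4 the nearest control. The log2 fold change was -0.66 (SE 0.12, adjusted p = 0.0148). These are dim signals. In the 5 female livers, probe sets of 3 Y-linked genes, which females lack, read 3.76 on average and up to 4.51. All 6 knockout values of Birc5 and control 4 lay at or below that highest reading, and above that average. With knockout values raised to this floor and control values left as read, the Birc5 mean was 1.15-fold higher in control livers, a point value without an interval. Without control 3 its adjusted p was 0.0508.

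The other genes of nucleotide supply did not pass. Rrm1 and Rrm2, the subunits of ribonucleotide reductase, had log2 fold changes of 0.03 (SE 0.17) and -0.32 (SE 0.22). Tyms, thymidylate synthase, which makes thymidylate by the route that does not need Tk1, ranged from 7.48 to 7.74 in controls and from 7.35 to 7.59 in knockout mice, with a log2 fold change of -0.12 (SE 0.08, adjusted p = 0.501) and the narrowest spread of any member (residual SD 0.101).

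**Figure D2:**
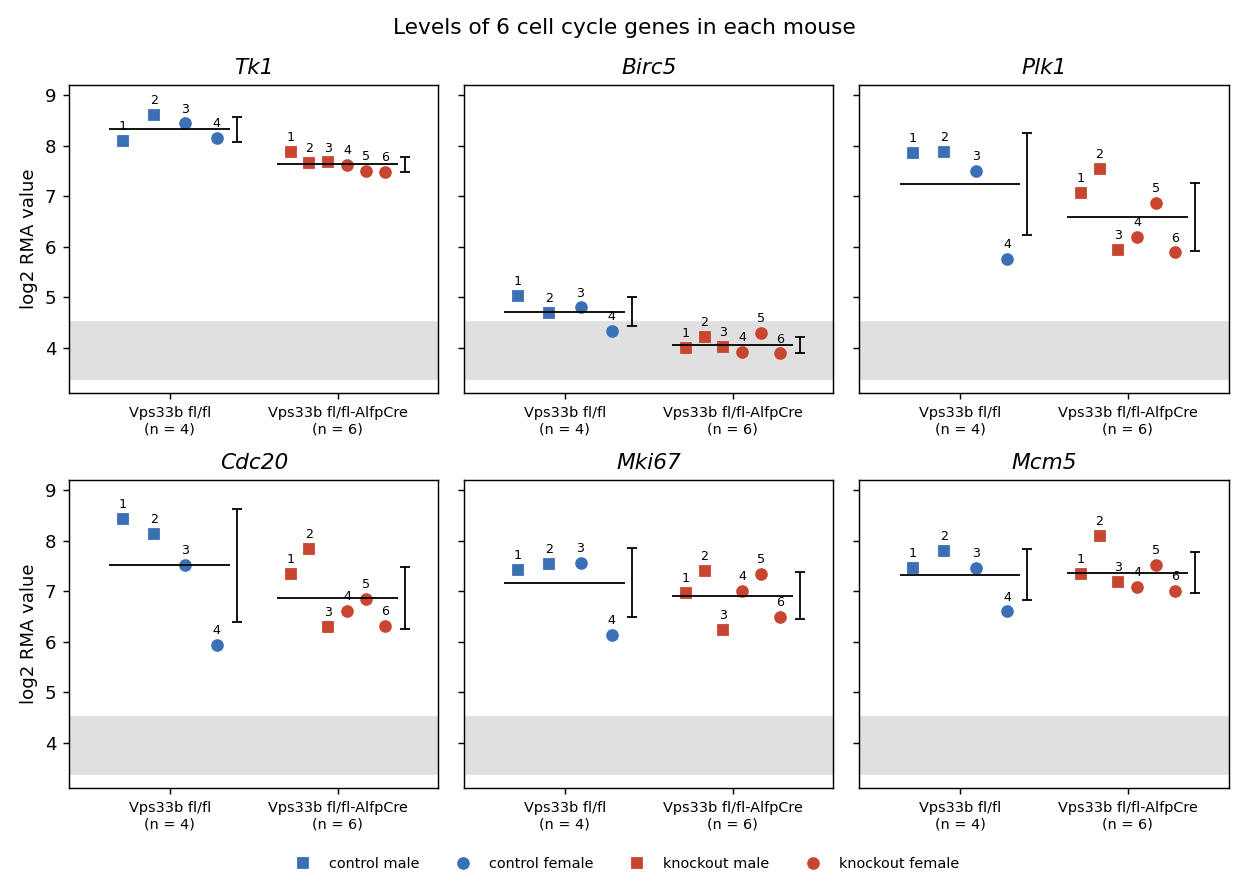
Log2 values of Tk1, Birc5, Plk1, Cdc20, Mki67 and Mcm5 in each mouse, numbered as in the text, with squares for males, circles for females, a line at the group mean and a bracket of 1 SD on either side (4 control and 6 knockout mice). The grey band spans Y-linked readings in females (3.39 to 4.51), and only Tk1 and Birc5 have groups that do not overlap, while control 4 is the lowest control for Plk1, Cdc20, Mki67 and Mcm5.

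Tk1 and Birc5 are near neighbours on chromosome 11. In the RefSeq order of genes, the only measured gene between them is Afmid, the arylformamidase of tryptophan breakdown to kynurenine, which is not a cell cycle gene and was looked at after the values of Tk1 and Birc5 had been seen. Afmid read 10.68, 10.85, 10.93 and 10.85 in the controls and 10.65, 10.02, 10.16, 9.88, 9.94 and 10.28 in the knockout mice. It was lower in every knockout mouse than in every control, with knockout 1 (10.65) just under control 1 (10.68). Its log2 fold change was -0.67 (SE 0.14, adjusted p = 0.0211), beside -0.69 for Tk1. The Birc5 estimate of -0.66 rests on knockout values at or below the highest Y-linked reading in females, so its size is uncertain.

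None of the measured genes beside these 3 passed. The 5 measured genes before Tk1 (Tnrc6c, Tmc6, Tmc8, 6030468B19Rik and Syngr2) and the 5 after Birc5 (Tmem235, Tha1, Socs3, Pgs1 and Dnah17) had log2 fold changes between -0.09 and 0.16 (0 of 10 passed, adjusted p 0.286 to 0.837). Syngr2, synaptogyrin 2, a vesicle membrane protein encoded next to Tk1, had 0.05 (SE 0.08, adjusted p = 0.837), and Tmem235, next to Birc5, had -0.08 (SE 0.11, adjusted p = 0.788). The annotated spans of Tk1 and Afmid overlap by 585 bases, and whether array probes of either gene lie in that stretch was not tested. The Afmid call was lost without control 2 (adjusted p = 0.07), control 3 (0.0677) or control 4 (0.0806).

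**Figure D3:**
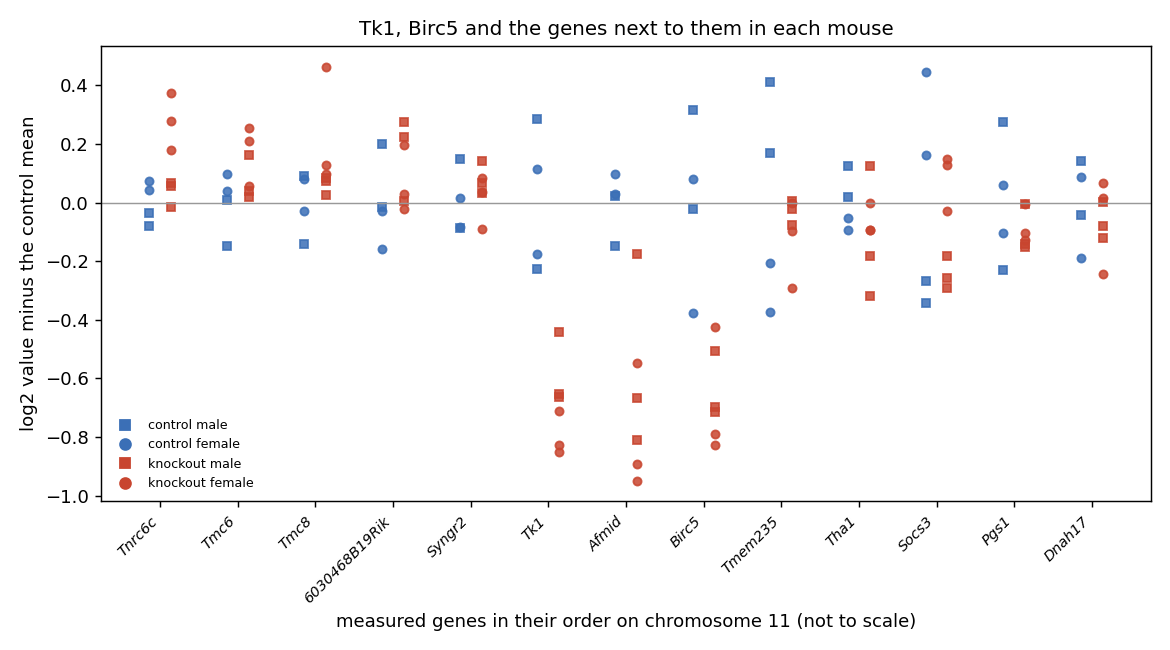
Log2 value minus the control mean for Tk1, Afmid, Birc5 and the 5 measured genes on either side, in chromosome order and not to scale, with blue for the 4 control and red for the 6 knockout mice (squares male, circles female). In Tk1, Afmid and Birc5 all knockout points lie below all control points, while in each of the 10 flanking genes the groups overlap.

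Replication genes showed no detectable change. Mcm2 to Mcm7, the subunits of the replicative helicase, and Pcna, the sliding clamp of DNA polymerases, all had fold changes above 0, or 6 of 7 did after median centring or repeated quantile normalisation. The values ran from 0.01 for Mcm4 to 0.27 for Mcm3 (SE 0.19, adjusted p = 0.528), with a median of 0.06, and 0 of 7 passed. Without control 4 only 3 of the 7 were above 0. Mcm5 read 7.46, 7.80, 7.46 and 6.60 in controls and 7.34, 8.09, 7.18, 7.08, 7.52 and 7.01 in knockout mice, and the groups overlapped over most of their range. Pcna ran from 9.64 to 10.07 in controls and from 9.61 to 10.09 in knockout mice, nearly the same interval, with a log2 fold change of 0.06 (SE 0.11).

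The 5 measured cyclin and Cdk1 genes had fold changes below 0 and none passed. Ccnd1, cyclin D1, which couples growth signals to cell cycle entry, had -0.28 (SE 0.16, adjusted p = 0.408). Ccne1, cyclin E1, which acts at the start of S phase, had -0.04 (SE 0.13). Ccna2, cyclin A2 of S phase and early mitosis, read 7.80, 7.62, 7.35 and 5.54 in controls and 6.94, 7.44, 5.59, 6.62, 7.10 and 5.84 in knockout mice, a log2 fold change of -0.49 (SE 0.43, adjusted p = 0.638). Control 4 lay below all 6 knockout mice here, and the other controls between 7.35 and 7.80. Ccnb2, cyclin B2, and Cdk1, its mitotic kinase, had -0.41 (SE 0.39) and -0.30 (SE 0.29).

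Among the transcription factors, E2f1, an activator of S phase genes, was at 0.00 (SE 0.13, adjusted p = 0.997). E2f8, a repressor of E2F targets that takes part in hepatocyte polyploidy, read 6.15, 7.01, 6.46 and 6.06 in controls and 5.59, 6.29, 6.02, 6.30, 5.72 and 5.90 in knockout mice. The E2f8 log2 fold change was -0.45 (SE 0.19), with an unadjusted p of 0.0400 and an adjusted p of 0.258, and the groups overlapped. Foxm1, the activator of mitotic genes, had -0.18 (SE 0.21, adjusted p = 0.730).

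The 10 mitotic kinase, checkpoint and anaphase-promoting complex genes had fold changes below 0 in 10 of 10 cases (7 of 10 without knockout 3), with a median of -0.36, and Birc5 alone passed. Aurka, the kinase of centrosomes and spindle poles, had the largest estimate of all members at -0.83 (SE 0.32, unadjusted p = 0.0241, adjusted p = 0.196). It read 7.27, 7.27, 7.03 and 5.71 in controls and 6.30, 6.65, 5.10, 5.85, 6.27 and 5.73 in knockout mice, so 3 controls lay above every knockout mouse and control 4 lay below 5 of the 6. Plk1, the kinase that drives entry into and passage through mitosis, read 7.86, 7.87, 7.49 and 5.75 in controls and 7.07, 7.54, 5.94, 6.19, 6.87 and 5.89 in knockout mice (log2 fold change -0.66, SE 0.37, adjusted p = 0.405). Cdc20, the activator of the anaphase-promoting complex, read 8.43, 8.14, 7.53 and 5.94 against 7.35, 7.83, 6.30, 6.60, 6.84 and 6.31 (log2 fold change -0.64, SE 0.35, adjusted p = 0.389). In both genes control 4 was the lowest mouse of all 10.

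Aurkb, the catalytic partner of Birc5, had -0.46 (SE 0.27, adjusted p = 0.437). The spindle checkpoint kinases Bub1, Bub1b and Ttk had -0.07, -0.09 and -0.15, Nek2, a centrosome kinase, -0.26, and Ube2c, the ubiquitin-conjugating enzyme of the anaphase-promoting complex, -0.19 (adjusted p 0.529 to 0.923).

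Of the 9 spindle, kinetochore and cytokinesis genes, 8 were below 0 and 0 passed, with a median log2 fold change of -0.32. The kinesins Kif11, which separates spindle poles, and Kif20a, which acts in cytokinesis, had -0.32 (SE 0.24) and -0.53 (SE 0.34), while Kif23, a kinesin of the central spindle, had 0.23 (SE 0.20, adjusted p = 0.640). Cenpf, a kinetochore protein of late interphase and mitosis, came nearest to the threshold with -0.31 (SE 0.14, adjusted p = 0.295). Cenpe, the kinetochore motor, had -0.18, Prc1, a microtubule bundler of the central spindle, -0.28, Anln, anillin of the contractile ring, -0.43, Nusap1, a spindle microtubule binder, -0.34, and Hmmr, a spindle assembly factor, -0.33. Hmmr was also dim, with 7 of 10 mice at or below the highest Y-linked reading. Mki67, the Ki-67 antigen widely used to mark cycling cells, read 7.42, 7.55, 7.56 and 6.14 in controls and 6.24 to 7.41, with a median of 6.99, in knockout mice, with a log2 fold change of -0.26 (SE 0.30, adjusted p = 0.741). Top2a, the topoisomerase that untangles replicated chromosomes, had -0.35 (SE 0.31, adjusted p = 0.645).

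Most of the variation lay between mice of the same genotype. When each member was set relative to its own mean over the 10 mice, the members averaged 0.42, 0.42, 0.31 and -0.56 in controls 1 to 4 and, among the knockout mice, 0.02, 0.46, -0.51, -0.19, 0.07 and -0.44 in order, on the log2 scale. The highest mouse was therefore a knockout and the lowest a control, and the group means of 0.15 (SD 0.47, n = 4) and -0.10 (SD 0.36, n = 6) were closer than 1 SD of either. Control 4 was the lowest of the 4 controls in 34 of 40 members, against 21.9% of all genes, and the lowest of all 10 mice in 21 of 40, against 9.77%. Knockout 2 was the highest knockout mouse in 31 of 40 members, against 18.3% of all genes, and knockout 3 and knockout 6 were the lowest in 19 and 16 of 40, against 17.6% and 17.4%. Because the members share these mice, they are not separate observations of them.

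**Figure D4:**
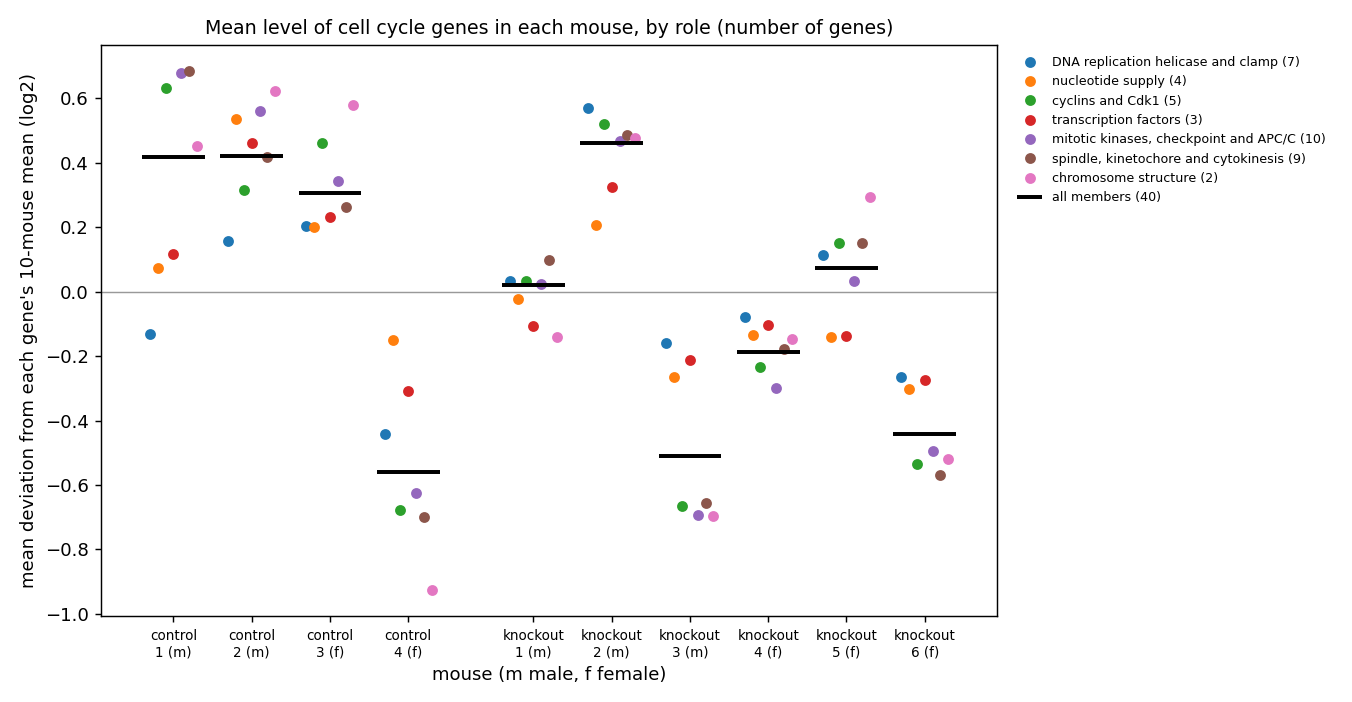
Mean deviation of the cell cycle genes from each gene's 10-mouse mean, per mouse, as coloured points for each role (number of genes in the key) and a black line for all 40 members. Control 4 and knockout mice 3, 4 and 6 lie below 0 in every role, and controls 2 and 3 and knockout 2 lie above it in every role.

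The replication genes moved less between mice than the mitotic genes, with a median residual SD of 0.34, against 0.48 for the mitotic kinase and checkpoint group and 0.47 for the spindle group. Control 4 was the lowest mouse of 10 for Plk1 and Cdc20, and knockout 2 was the highest knockout mouse for both. Tk1, with a residual SD close to that of other genes, read 8.15 in control 4 and 7.66 in knockout 2. The dim Birc5 read 4.34 and 4.21 in these mice, with control 4 its lowest control. That control 4 lay above all knockout mice for Tk1 and Birc5 only restates that their groups did not overlap. The median over all genes, a check of array scaling, was lowest in control 4, at 5.53, against 5.54 to 5.63 in the other mice, and centring the arrays on it left the member mean of control 4 the lowest, at -0.51, with knockout 3 at -0.50.

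Sex was a second axis of the design. Females were lower than males in 37 of 40 members, with a median log2 difference, female minus male, of -0.34, against 0.0001 and 49.93% below 0 over all genes. Yet 0 of 40 members passed for sex (0.491% of all genes did), and 10 had an unadjusted p under 0.05, against 11.6% of all genes. The smallest adjusted p belonged to Ccnd1, which ran the other way. Ccnd1 read 10.63 and 10.33 in control males, 11.85 and 11.29 in control females, 10.58, 10.60 and 10.12 in knockout males, and 10.94, 11.33 and 10.88 in knockout females. All 5 females were above all 5 males, and the log2 difference was 0.81 (SE 0.16, adjusted p = 0.0518).

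The genotype difference was also taken within each sex. The median member log2 fold change was -0.55 in males (2 control and 3 knockout mice), with 32 of 40 below 0, and -0.02 in females, with 23 of 40 below 0. Over all genes the medians were -0.01 and 0.001. Both values leaned on single mice. The female median was -0.47 without control 4 and 0.41 without control 3, and the male median was -0.23 without knockout 3 and -0.73 without knockout 2. The difference between sexes was tested for each gene, and 0 of 40 members passed (0.00451% of all genes did). Cenpf had the smallest adjusted p among them, 0.751, with -0.64 in males and 0.02 in females (difference 0.66, SE 0.22).

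**Figure D5:**
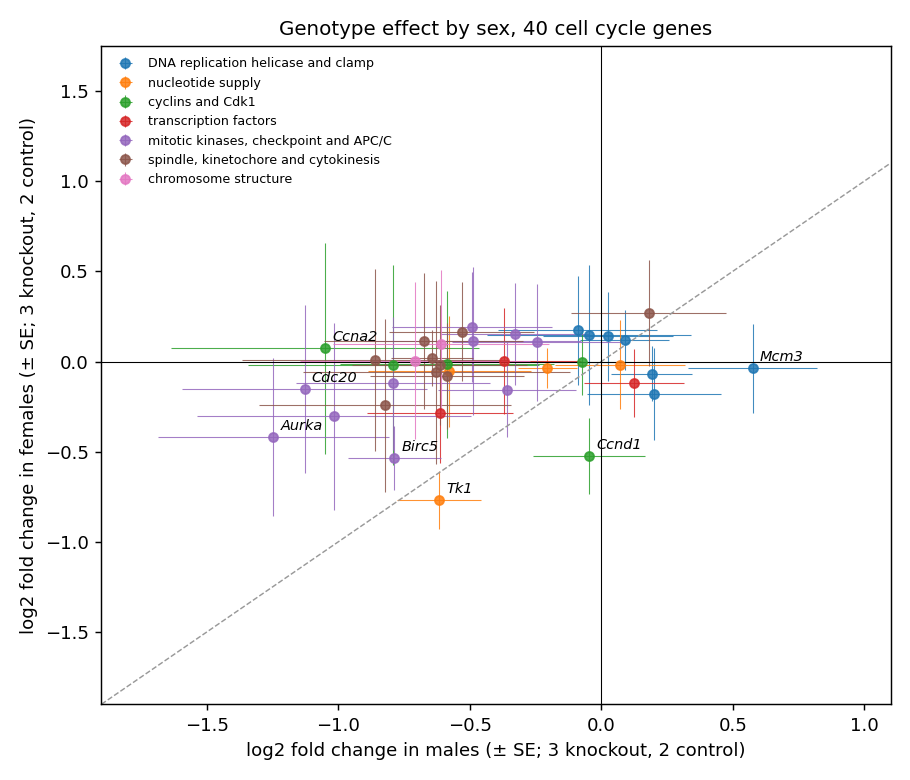
Log2 fold change, knockout minus control, in females (vertical) against males (horizontal) for the 40 members, coloured by role, with SE bars and a dashed line of equal effects (2 control and 3 knockout mice per sex). Most mitotic genes lie left of 0 and near 0 on the vertical axis, while Tk1 and Birc5 are below 0 in both sexes (Tk1 -0.62 and -0.77, Birc5 -0.79 and -0.53).

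Beyond the members, 137 of 143 other cell cycle and growth response genes in 8 lists were measured. Of these 137, 6 were higher and 2 lower, against 3.11% and 1.14% of all genes, with a median log2 fold change of -0.04. The inhibitors of cyclin-dependent kinases (8 genes), the cyclins and kinases of cell cycle entry (9), the RB, E2F and DREAM genes (17), the replication licensing genes (18) and the mitotic entry and checkpoint genes (17) had 0 genes that passed in limma, with 9 of these 69 lower and 5 higher at an unadjusted p under 0.05, where all genes gave 7.67% and 9.65%. Cdkn1a, the p53-induced inhibitor of these kinases, had 0.27 (SE 0.26, adjusted p = 0.674). Mybl1, a factor of the MYB family, had 1.56 (SE 0.45, adjusted p = 0.0792). It read 6.36, 6.55, 6.39 and 5.48 in controls and 6.94, 8.73, 6.13, 7.90, 8.48 and 8.32 in knockout mice, where knockout 3 alone lay among the controls. Mybl2, of the same family and list, had -0.04 (SE 0.10, adjusted p = 0.902).

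In the fork synthesis list, 1 of 20 genes was higher and 1 lower, both of them subunits of DNA polymerase delta. Pold3 was higher by 0.28 (SE 0.07, adjusted p = 0.0489), from 7.55 to 7.62 in controls and 7.76 to 7.98 in knockout mice. Pold2 was lower, with a log2 fold change of -0.33 (SE 0.08, adjusted p = 0.0423), from 8.76 to 9.10 in controls and 8.45 to 8.63 in knockout mice. Neither pair of groups overlapped, where 3.39% of all genes had every knockout mouse above and 1.93% every knockout mouse below. The Pold2 and Pold3 calls were each lost in 10 or more of 20 alternative fits (Pold2 kept it in 10, Pold3 in 7). Of 33 kinetochore, spindle and condensin genes, 28 were below 0, against 51.93% of all genes, with a median of -0.17. They followed the same mice as the members, with mean deviations of 0.43, 0.35, 0.19 and -0.47 in controls 1 to 4. Knockout mice 1 to 6 were at -0.01, 0.33, -0.36, -0.15, 0.06 and -0.36. Their median was -0.37 in males, with 31 of 33 below 0, and 0.03 in females, with 15 of 33 below 0. In this list 1 gene passed. This was Spc25, a subunit of the Ndc80 complex that ties kinetochores to microtubules, which read 6.95, 7.14, 6.61 and 6.07 in controls and 6.20, 6.11, 5.92, 6.15, 5.96 and 5.38 in knockout mice (log2 fold change -0.74, SE 0.17, adjusted p = 0.0294). As in Aurka, 3 controls lay above all knockout mice and control 4 lay among them. Spc25 kept its call in 13 of 20 alternative fits and lost it without control 1 (adjusted p = 0.0524), control 2 (0.115), control 3 (0.091), knockout 1 (0.0521) or knockout 2 (0.0624).

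The growth response list held 5 of the 6 higher genes. Of its 15 measured immediate early genes, growth factors and receptors, 14 had fold changes above 0, with a median of 0.60. Junb, an AP-1 subunit, rose by 0.64 (SE 0.11, adjusted p = 0.00916), from 8.41, 8.20, 8.40 and 8.46 in controls to 8.79, 8.69, 8.72, 9.44, 9.34 and 9.06 in knockout mice, with no overlap. Jun, its partner in AP-1, rose by 0.96 (SE 0.24, adjusted p = 0.0428). Jun control males read 10.15 and 10.12 and control females 8.87 and 9.14, against 10.21 to 10.86 in knockout mice. Klf6, a zinc finger transcription factor induced on injury, rose by 1.59 (SE 0.33, adjusted p = 0.0226), Egr1, an early growth response factor, by 1.26 (SE 0.28, adjusted p = 0.0299), and Hbegf, a ligand of the EGF receptor, by 0.70 (SE 0.14, adjusted p = 0.0189).

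Myc, the growth factor-responsive transcription factor, did not pass, with 1.29 (SE 0.52, adjusted p = 0.221). Control 1 read 9.18 while controls 2 to 4 read 6.32 to 6.59, and the knockout mice read 7.31 to 9.08. Without control 1 the Myc log2 fold change was 2.02 (adjusted p = 0.00488). Control 1 was also the highest control for Klf6, at 10.12 against 8.48 to 8.57. Calls in this list moved with the mice used: Junb kept its call in 19 of 20 alternative fits, Hbegf in 16, Klf6 in 13, and Jun and Egr1 in 10.

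The livers also differed in genes of other cell types, beside which these results stand. Over all genes, 3.11% were higher and 1.14% lower, and in 3.39% every knockout value lay above every control. Of 8 measured bile duct markers 5 were higher and 0 lower, with a median of 0.63. Their mean deviation ran from -0.53 to -0.28 in controls and from 0.15 to 0.47 in knockout mice, without overlap. Of 12 macrophage markers 5 were higher and 0 lower (median 0.57), with controls from -0.71 to -0.16 and knockout mice from -0.06 to 0.45. Of 10 stellate cell and fibroblast markers 3 were higher and 0 lower (median 0.42). The 12 hepatocyte markers had 0 calls and a median of -0.07. Of 8 neutrophil and 9 endothelial markers 1 each was higher, and 10 lymphocyte and 4 red cell precursor markers had 0 calls. Bile duct cells, macrophages, stellate cells, fibroblasts and hepatocytes can cycle, and the part of such differences in the member values was not tested. Vps33b itself read 8.92 to 9.39 in all mice (log2 fold change 0.08, adjusted p = 0.739), and which of its exons the probe set covers was not established, so it checks nothing about the labels. Correlations between arrays ran from 0.984 to 0.995.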

How the data were processed

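Liver RNA of 10 mice was measured on Affymetrix Mouse Gene 2.0 arrays. The deposited values are log2 signals per probe set, which the authors computed by RMA with oligo; the sources used here give no versions. The number of mice, not a read depth, limits precision. Of 41345 probe sets, 23521 have 1 symbol in the platform annotation and were used, 1820 have several and 16004 are not listed. For the 1082 genes with several, that with the highest mean served. Each gene was modelled on genotype plus sex with limma 3.58.1 under R 4.3.3, with Benjamini-Hochberg adjustment over 22180 genes; effects within sexes came from a fit with 4 groups. The scripts were tested on simulated data. The members and lists were chosen with earlier results of these data known. All members were named, and in each other list up to 4 genes past the threshold, plus Myc, Cdkn1a and Mybl1. Jun, beyond these 4, Mybl2, Afmid and the genes flanking Afmid were chosen after seeing values. Alternatives covered model terms, probe set choices, filters, scalings, moderation and array weights, and leaving out each mouse. Promoter windows are from RefSeq (GRCm38.p6). P-values set each effect against the spread between these mice, as moderated by limma over all genes.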

Additional observations from a re-analysis of the deposited data

Results flagged for a closer look

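In groups of 4 controls or 6 knockout mice, 12 values stood far from the rest of their own group by Dixon's criterion, out of 82 groups examined, where chance gives about 1 in 20. Control 4 was far below the other controls for Aurka (5.71), Bub1b (4.92), Anln (4.68), Mki67 (6.14) and Top2a (4.80), and for the mean deviation of all members (-0.561). Knockout 3 was far below the other knockout mice for Bub1b (4.585) and Kif23 (4.93). Knockout 2 was far above them for Mcm3 (7.10), Mcm7 (7.85), Rrm2 (7.36) and Foxm1 (6.03). All 10 libraries stayed in the comparisons of the report. The genes share the same mice, so these values are not independent of each other, and what sets these mice apart was not tested.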

How the results depend on the processing

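Over 20 alternative fits, Tk1 kept its call in 19 and Birc5 in 17 of the 19 that tested it, and 0 members were higher in any of them. Tk1 and Birc5 each had 1 probe set, so the alternative probe set choices used the same values for them and could hardly change their calls. Lower members, 2 as reported, numbered 1 with only genes above the Y-linked background, where Birc5 was not tested, and 1 to 2 when leaving out each mouse. Whether the replicate numbers pair the mice is not known. The same-number correlations of deviations were 0.17, 0.292, -0.223 and 0.162, and no control matched best the knockout of its own number. These correlations cannot decide it, because sex was left in the deviations. Number 3 is a female control and a male knockout, and each control matched best a knockout of its own sex. The replicate block drops the partnerless knockout mice 5 and 6 from the genotype contrast. It also drops control 3, a female, and knockout 3, a male, because the sex term takes up their difference. The contrast then rests on the pairs numbered 1, 2 and 4. With this block, 0 members were lower, with Tk1 at -0.57 (adjusted p = 0.169) and Birc5 at -0.64 (adjusted p = 0.113). There, 1 pathway gene was higher and 0 lower, and 208 genes were higher and 49 lower over all. Without the sex term, 1 pathway gene and 165 of all genes were lower. Higher pathway genes numbered 3 with trend and robust moderation and 10 with array weights, where 499 of all genes were lower. Members differing between sexes numbered 1, Ccnd1, rather than 0 with the mean of all probe sets (adjusted p = 0.0499), the background filter (0.0458), median centring (0.0478) and array weights (0.0442), and 0 to 1 when leaving out each mouse, with 1 without knockout 1. Leaving out each mouse gave 1 to 7 higher and 0 to 2 lower pathway genes, and 233 to 825 higher and 47 to 449 lower over all; both lowest counts over all genes came without control 2. The median log2 fold change of the members was 0.01 with the block, -0.16 with array weights and -0.49 to -0.11 when leaving out each mouse. Alternatives for Afmid, the named pathway genes, the Ccnd1 sex difference and this median were chosen after seeing the data. Of 1055 single gene values under alternatives, 69 lost a call, 9 gained one and 0 called values reversed, while 53 uncalled values turned sign; the cause was not tested. With 4 against 6 mice, the median 95% interval of a member was 0.93 wide on the log2 scale.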
